A study of Mus musculus with 28 samples.

Results

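The genes described here are 34 mouse genes that act in protein folding, stress signalling and collagen processing in the endoplasmic reticulum (ER), out of 53647 gene IDs in the count matrix. They were taken as a named list, by symbol, which was chosen with earlier results of these data known. All 34 had counts and passed the filter on low counts in both sorts. They fall into 6 roles, with 11 lumenal chaperones and co-chaperones, 4 protein disulfide isomerases, 5 stress regulators, 4 genes of ER-associated degradation, 3 genes of translocation into the ER and 7 collagen-modifying genes. The tissue was mouse brain with or without brain metastasis (BrM), from which vascular cells were sorted for RNA-seq. The series asks how these cells differ in metastases from those in tumor-free brain.

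All mice carried PDGFRβ-CreERT2 and Rosa-tdTomato, and per the labels received 2 mg of tamoxifen a day for 5 days, so that cells which use the Pdgfrb promoter turned red. Breast BrM were raised from PyMT-BrM3 cells and lung BrM from Sv2T3-BrM1 cells, both lines that home to the brain after injection into the heart. Each model rests on 1 line, and the labels give no age. Cells negative for CD45, CD11B and EPCAM were sorted as CD31+ (endothelial) or as PDGFRβ-tdTom+ (mural: pericytes and smooth muscle). The tdTomato sort takes any cell that used that promoter, so fibroblasts can enter it. There were 5 CD31 libraries of each condition (breast BrM, lung BrM, tumor-free brain), and 4, 4 and 5 PDGFRb libraries of the same conditions. They came from 15 mice or pairs of mouse numbers, 13 of which gave both sorts. In 2 lung cases the label names 2 mouse numbers (55169-70 and 56195-56520), and each was kept as 1 replicate.

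Proteins that are secreted or set into membranes enter the ER through the Sec61 channel and fold there with help from chaperones of the lumen. Hspa5 (BiP) is the main Hsp70 of this compartment, and disulfide isomerases make and rearrange the bonds between cysteines. When unfolded proteins build up, the sensors Ern1 (IRE1), Eif2ak3 (PERK) and Atf6 raise chaperones and degradation genes through the factors Xbp1, Atf4 and Atf6. This is the unfolded protein response, and prolonged activity of the PERK arm raises Ddit3 (CHOP) and Trib3. Collagen needs further helpers in the ER, namely the collagen chaperone Serpinh1 (HSP47), the prolyl isomerases Ppib and Fkbp10, and the lysyl hydroxylases Plod1 to Plod3. Fkbp11, an ER isomerase of the same family as Fkbp10, is listed here with the collagen-modifying genes, and a role in collagen folding is not implied. Endothelial and mural cells build the vessel basement membrane, whose main collagen is type IV. Xbp1 is activated by splicing of its mRNA, which cannot be read from counts per gene.

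Libraries held 12.9 M to 20.8 M counts in the CD31 sort and 7.11 M to 23.9 M in the PDGFRb sort. The lowest was the PDGFRb breast library of mouse 51950, which also had fewer genes with counts (9174) than any other library. The 10 endothelial markers summed to 7060 to 15000 CPM (counts scaled to 1 M per library) in CD31 breast, 10600 to 15700 in CD31 lung and 23400 to 24600 in CD31 non-tumor libraries. In the PDGFRb sort, Pdgfrb itself was at 36 to 42.2 CPM in 3 of the 4 lung libraries (54957, 55169-70 and 56195-56520), against 466 CPM in the other lung library, 302 to 1390 CPM in breast libraries and 856 to 1470 CPM in non-tumor libraries. Mural markers in those 3 libraries summed to 348, 317 and 537 CPM, against 9830 CPM in lung library 51435. Those 3 libraries go against their mural label. PDGFRb lung changes of the ER genes that passed the test against non-tumor brain are therefore given with and without them. Other PDGFRb lung values include them unless stated otherwise. The 10 epithelial markers, Epcam and Krt8 among them, summed to 132 to 2840 CPM in CD31 breast, 97 to 2270 in CD31 lung and 0.117 to 8.65 in CD31 non-tumor libraries. The same markers summed to 964 to 3840 CPM in PDGFRb breast, 6200 to 10100 in PDGFRb lung and 5.24 to 66.5 in PDGFRb non-tumor libraries. The PDGFRb lung sum was mostly Krt8 (2490 to 4030 CPM) and Krt18 (2320 to 3500 CPM). Lung library 51435, of higher Pdgfrb, had an epithelial sum of 6200 CPM, above every PDGFRb breast library. Changes given for it alone are thus not from a library of low epithelial markers. Epcam was at 5.94 to 31.9 CPM in PDGFRb lung, 73.6 to 271 CPM in PDGFRb breast and 0 to 39.8 CPM in CD31 lung libraries. In CD31 breast libraries Epcam was at 14.1 to 389 CPM, highest in 53072 and next in 51950 (79.7 CPM). Of the epithelial markers tested, 8 of 9 rose in CD31 breast and 7 of 9 in CD31 lung BrM. In the PDGFRb sort 7 of 10 rose in breast and 6 of 10 in lung BrM. No epithelial marker was at 0 in CD31 breast libraries, 1 to 4 of 10 were at 0 in CD31 lung and 2 to 8 of 10 in CD31 non-tumor libraries. The 6 plasma and B cell markers summed to 966 to 1960 CPM in PDGFRb lung and 15.8 to 37.6 CPM in PDGFRb non-tumor libraries. That sum was mostly Sdc1 (mean 1500 CPM in PDGFRb lung and 22.5 CPM in PDGFRb non-tumor libraries), which epithelial cells also make. Of the 6, 4 to 5 were at 0 in PDGFRb lung and 0 to 5 in PDGFRb non-tumor libraries, with Jchain, Mzb1, Ms4a1 and Cd79b at 0 in all PDGFRb lung libraries. The 6 astrocyte markers summed to 382 to 668 CPM in CD31 breast, 283 to 592 in CD31 lung and 108 to 189 in CD31 non-tumor libraries, with 0 to 2, 1 to 5 and 0 of them at 0. Most of the CD31 sum was Gja1, at a mean of 404 CPM in CD31 breast and 427 CPM in CD31 lung, against 136 CPM in CD31 non-tumor libraries, while Gfap averaged 1.42, 0.272 and 0.956 CPM in the same groups. In the PDGFRb sort the astrocyte sums were 297 to 777 CPM in breast, 102 to 304 CPM in lung and 250 to 3460 CPM in non-tumor libraries. Of the astrocyte markers tested, 2 rose and 1 fell of 5 in CD31 breast, 1 rose and 2 fell of 5 in CD31 lung, 1 rose and 2 fell of 6 in PDGFRb breast, and 0 rose and 5 fell of 6 in PDGFRb lung BrM. The part of these markers' cells in the members' levels was not tested. In bulk RNA, fewer cells of a type and less RNA per cell cannot be told apart.

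In both sorts the 34 genes together took a larger share of the counts in BrM than in non-tumor brain. They held 0.859% to 1.14% of counts in CD31 breast and 0.832% to 1.04% in CD31 lung libraries, against 0.587% to 0.659% in CD31 non-tumor libraries. In PDGFRb libraries the shares were 1.04% to 1.15% in breast and 1.03% to 1.19% in lung, against 0.545% to 0.686% in non-tumor brain. No tumor library of either sort overlapped the non-tumor libraries of its sort in this share.

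Gene by gene, a call meant a Benjamini-Hochberg adjusted p below 0.05 over all genes tested in edgeR's quasi-likelihood fit. By that rule 15 members rose and 2 fell in CD31 breast BrM. That is 44.1% and 5.88% of the members, where 18.6% of 14876 tested genes rose and 11.4% fell. In CD31 lung BrM 13 members rose and 2 fell (38.2% and 5.88%), beside 20.4% and 14.5% of all tested genes. In PDGFRb breast BrM 14 members rose and 0 fell (41.2% and 0%), where 6.3% of 17028 tested genes rose and 2.69% fell. In PDGFRb lung BrM 17 rose and 1 fell (50% and 2.94%), beside 9.91% and 7.58% of all tested genes. The median log2 change of the members was 0.56 in CD31 breast, 0.46 in CD31 lung, 0.89 in PDGFRb breast and 0.86 in PDGFRb lung BrM, while the medians of all tested genes were 0.04, 0, -0.16 and -0.03. The members were chosen with earlier results of these data known, so their shares beside those of all genes are description and no independent check. Breast and lung BrM of a sort were set against the same non-tumor libraries, so their changes are not independent of each other. Without the 3 lung libraries of low Pdgfrb, 1 PDGFRb lung library remained, which was then assumed to vary like the other groups, and 3 members were called (Pdia3, Pdia6 and P4hb). All 18 called members kept their direction there.

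**Figure D1:**
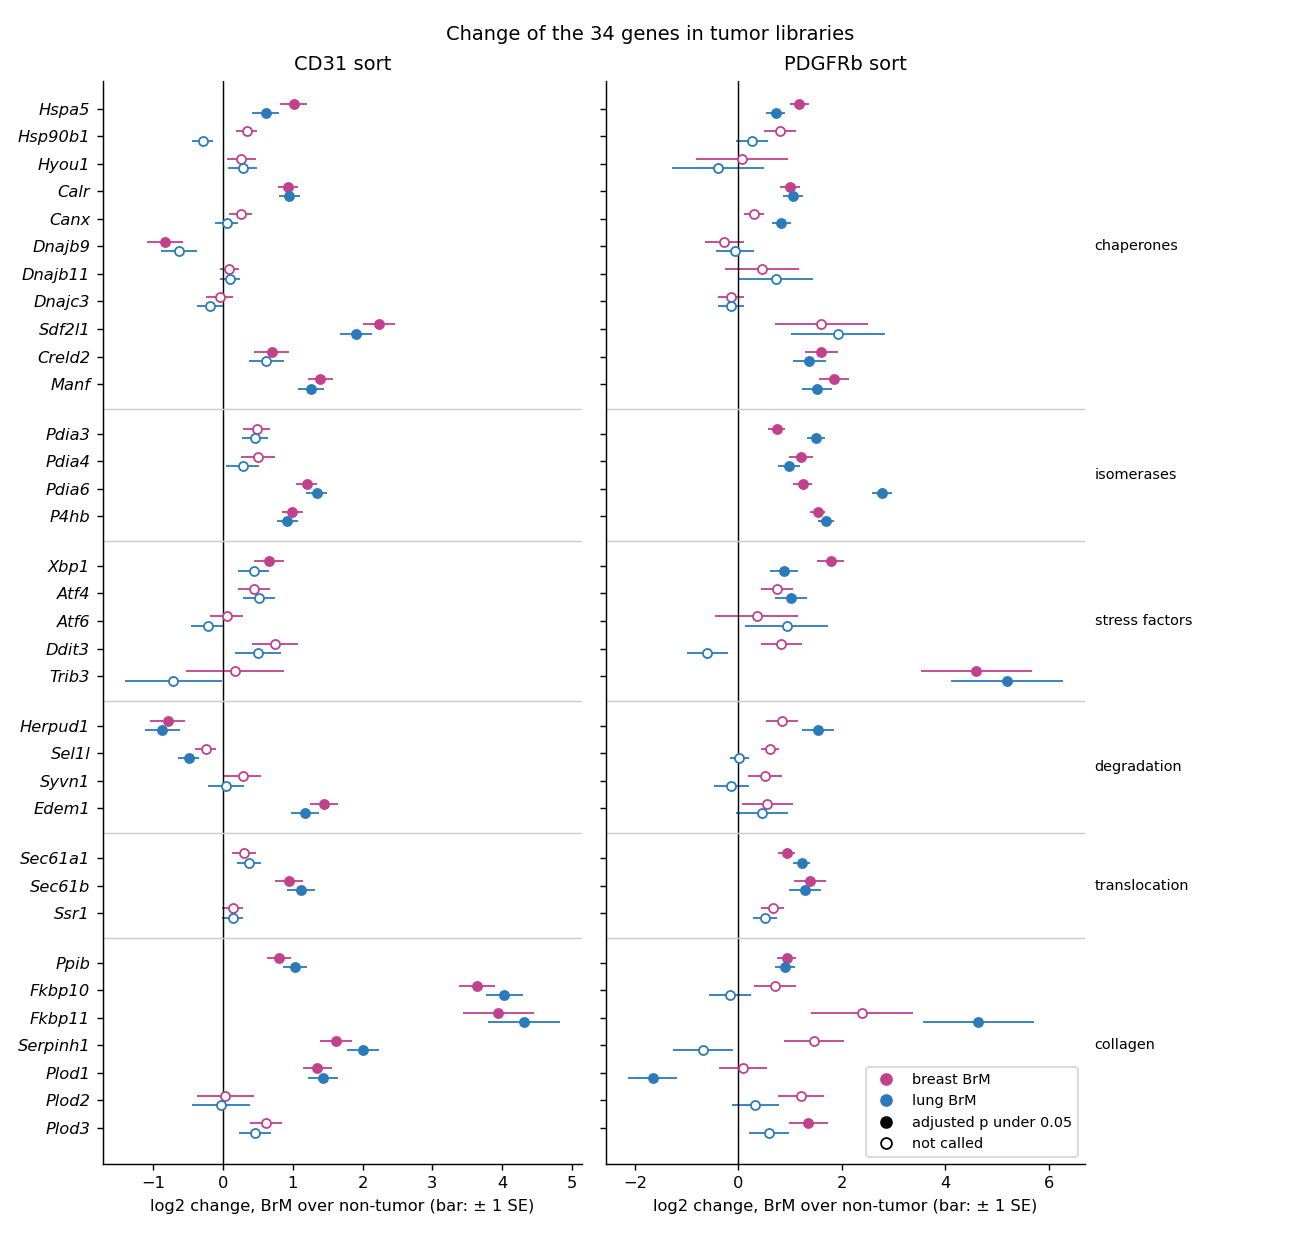
Log2 change of each of the 34 genes, BrM against non-tumor brain, in the CD31 and PDGFRb sorts, ordered by role. Bars are the standard error of the fit and filled points passed an adjusted p under 0.05. Collagen-modifying genes hold the largest rises in the CD31 sort (Fkbp11, 3.94 in breast and 4.31 in lung, then Fkbp10), and Pdia6 (2.77) stands out among the isomerases in PDGFRb lung BrM.

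The column names carry dates, of what the labels do not say, and breast and lung libraries never share a date, while 1 date holds non-tumor libraries alone. With date as a covariate, 13 of the 17 called members stayed called in CD31 breast BrM and 11 of the 15 in CD31 lung BrM. In CD31 breast BrM the others were Hspa5 (0.78, adjusted p = 0.08), Creld2 (0.51, adjusted p = 0.42), Dnajb9 (-0.78, adjusted p = 0.17) and Xbp1 (0.71, adjusted p = 0.059). In CD31 lung BrM they were Hspa5 (0.77, adjusted p = 0.15), Manf (0.95, adjusted p = 0.065), Sec61b (0.74, adjusted p = 0.12) and Sel1l (-0.54, adjusted p = 0.23). In PDGFRb breast BrM P4hb alone of 14 stayed called (1.64, adjusted p = 0.023), and Hspa5 was at 1.24 (adjusted p = 0.097), Xbp1 at 2.03 (adjusted p = 0.084) and Trib3 at 5.37 (adjusted p = 0.25). In PDGFRb lung BrM 4 of 18 stayed called, Pdia3, Pdia6, P4hb and Sec61a1, and Serpinh1 was newly called (-2.45, adjusted p = 0.012). Lung libraries 51435 and 55169-70 were the only PDGFRb libraries of their dates, so they had no weight in these lung changes. The changes rested on lung libraries 54957 and 56195-56520, both of low Pdgfrb, against the non-tumor libraries of their date. Library 51435, at 648 CPM of Serpinh1, thus did not count in the Serpinh1 value. In the CD31 sort too the lung changes with date rested on 54957 and 56195-56520. Every called member kept its direction in these fits, where the median standard error over the called members of PDGFRb lung BrM was 0.42, beside 0.25 without the date. Within each date that held both conditions, every called member differed in the direction of its call, with 1 or 2 non-tumor libraries a date and no test. These libraries also gave the calls, so the shared direction is no independent check. For lung BrM they were libraries 54957 and 56195-56520 alone.

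Among the 11 chaperones and co-chaperones, 5 rose and 1 fell in CD31 breast, 4 rose in CD31 lung, 4 rose in PDGFRb breast and 5 rose in PDGFRb lung BrM. Hspa5, the ER Hsp70, Calr (calreticulin, a lectin chaperone) and Manf, a small secreted ER stress protein, rose in all of these comparisons. Sdf2l1, a partner of the Hspa5 cycle, rose in both CD31 comparisons, and its PDGFRb values turn on 1 library.

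Hspa5 had 939, 965, 733, 1300 and 1030 CPM in CD31 breast libraries, 893, 527, 849, 870 and 577 CPM in CD31 lung libraries and 556, 485, 624, 468 and 397 CPM in CD31 non-tumor libraries. All breast libraries lay above all non-tumor ones, while lung libraries 51697 and 56195-56520 lay within the non-tumor range. Its log2 change was 1.01 ± 0.19 (SE; adjusted p = 0.00083) in breast and 0.61 ± 0.19 (adjusted p = 0.021) in lung BrM, and the lung value was 0.54 (adjusted p = 0.052) without non-tumor library 56740. Hspa5 in PDGFRb cells had 1030, 1190, 747 and 1290 CPM in breast, 964, 646, 790 and 663 CPM in lung and 431, 448, 486, 542 and 491 CPM in non-tumor libraries. Neither tumor group overlapped the non-tumor libraries. The log2 changes were 1.18 ± 0.18 (adjusted p = 0.0017) in breast and 0.72 ± 0.18 (adjusted p = 0.016) in lung BrM. The lung call was lost in 5 of the 9 fits that left out 1 library (adjusted p 0.053 to 0.096), and without the 3 libraries of low Pdgfrb the change was 0.97 (adjusted p = 0.22).

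The promoter of Hspa5 is shown because it holds the textbook target site of this response, the ER stress element, a CCAAT box bound by NF-Y followed at a fixed distance by CCACG, bound by Atf6. The sequence is RefSeq's on GRCm38.p6, plus strand, chr2:34771840-34772139, from 250 bases before to 50 bases after the gene's start, with the element in capitals.
Hspa5 promoter: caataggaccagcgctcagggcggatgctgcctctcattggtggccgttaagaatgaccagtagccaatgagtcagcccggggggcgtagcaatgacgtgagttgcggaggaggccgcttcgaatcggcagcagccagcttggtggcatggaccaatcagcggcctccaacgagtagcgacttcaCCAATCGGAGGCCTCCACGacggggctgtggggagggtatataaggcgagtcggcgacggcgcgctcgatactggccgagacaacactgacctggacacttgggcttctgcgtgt

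RefSeq promoters of this length were found for 28 of the 34 members. The element was searched as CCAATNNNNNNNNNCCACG on both strands, and it contains the shorter CCAAT box. It was present in 8 of the 28 members and in 37 of 27025 genes with a promoter (0.137%). The 8 members are shown to compare the spacer between the fixed letters, which are in capitals; each site is read on the strand where it matches, and Hsp90b1 holds a pair of sites.
Hspa5: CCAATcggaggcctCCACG
Hsp90b1 far site: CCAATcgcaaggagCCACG
Hsp90b1 near site: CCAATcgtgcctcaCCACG
Calr: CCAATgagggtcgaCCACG
Canx: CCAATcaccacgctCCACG
Dnajc3: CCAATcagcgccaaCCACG
Creld2: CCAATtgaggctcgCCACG
Pdia6: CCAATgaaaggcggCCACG
Syvn1: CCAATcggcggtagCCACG
Counts of members that rose are given for both classes. In CD31 breast BrM 4 of the 8 with it and 9 of the 20 without it rose. The counts were 3 of 8 and 8 of 20 in CD31 lung, 4 of 8 and 8 of 20 in PDGFRb breast, and 5 of 8 and 10 of 20 in PDGFRb lung BrM. The core TGACGTGG, linked to Xbp1, was in 0 of 28 members and 0.714% of genes. The core TGATGNAA, of composite Atf4 sites, was in 2 of 28 members (Trib3 and Herpud1) and 4.51% of genes. A match in these letters describes the sequence only.

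Sdf2l1 had 41.9, 37.9, 33.4, 46.3 and 41.0 CPM in CD31 breast libraries, 33.8, 34.2, 30.0, 31.0 and 26.4 CPM in CD31 lung libraries and 7.26, 8.27, 14.1, 6.59 and 7.0 CPM in CD31 non-tumor libraries. No tumor library overlapped a non-tumor one, with log2 changes of 2.24 ± 0.23 (adjusted p = 2.4e-06) in breast and 1.90 ± 0.23 (adjusted p = 1.1e-05) in lung BrM. Sdf2l1 in PDGFRb cells had 0, 56.4, 51.4 and 64.7 CPM in breast, 56.2, 49.8, 66.0 and 42.4 CPM in lung and 13.3, 10.5, 17.2, 17.7 and 14.6 CPM in non-tumor libraries. All tumor libraries lay above the non-tumor ones other than breast library 51950, where 3 counts would have given 0.498 CPM. With that library the changes were 1.60 ± 0.90 (adjusted p = 0.30) in breast and 1.92 ± 0.91 (adjusted p = 0.18) in lung BrM. Without it they were 1.99 ± 0.22 (adjusted p = 0.00012) and 1.86 ± 0.21 (adjusted p = 3.2e-05).

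Manf had 114, 190, 107, 139 and 110 CPM in CD31 breast libraries, 131, 139, 101, 130 and 90.9 CPM in CD31 lung libraries and 53.6, 50.3, 50.6, 57.5 and 45.7 CPM in CD31 non-tumor libraries. Manf in PDGFRb cells had 326, 157, 131 and 184 CPM in breast, 192, 172, 146 and 118 CPM in lung and 46.4, 72.2, 65.9, 52.5 and 44.4 CPM in non-tumor libraries. In neither sort did a tumor library reach down to the non-tumor range. The log2 changes were 1.39 ± 0.18 and 1.26 ± 0.18 in CD31 breast and lung BrM (adjusted p = 2.2e-05 and 5.1e-05), and 1.85 ± 0.29 and 1.52 ± 0.29 in PDGFRb breast and lung BrM (adjusted p = 0.0019 and 0.0031). Without the 3 lung libraries of low Pdgfrb the PDGFRb lung value was 1.74 (adjusted p = 0.15).

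Calr averaged 550 ± 41.4 CPM in CD31 breast, 544 ± 106 CPM in CD31 lung and 294 ± 37.7 CPM in CD31 non-tumor libraries (SD, n = 5 each). Its log2 changes were 0.93 ± 0.15 and 0.95 ± 0.15 there, and 1.0 ± 0.19 and 1.05 ± 0.19 in PDGFRb breast and lung BrM (adjusted p at most 0.0051). In lung library 51435 alone of the PDGFRb lung group the change was 1.28 (adjusted p = 0.091). Creld2, a co-factor of disulfide exchange, rose in CD31 breast BrM by 0.70 ± 0.25 (adjusted p = 0.041), a call lost in 9 of the 10 fits without 1 library (adjusted p 0.05 to 0.094), and in PDGFRb breast and lung BrM by 1.60 ± 0.32 and 1.37 ± 0.32 (adjusted p = 0.0077 and 0.01). The PDGFRb lung call was lost without lung library 55169-70 (adjusted p = 0.051), and the change was 1.53 (adjusted p = 0.35) in library 51435 alone. Canx, the membrane-bound partner of Calr, rose in PDGFRb lung BrM (0.83 ± 0.19, adjusted p = 0.0092). That call was lost without lung library 55169-70 (adjusted p = 0.056), with date as a covariate (0.62, adjusted p = 0.37) and in library 51435 alone (0.75, adjusted p = 0.54). Dnajb9, an Hspa5 co-chaperone that is an Xbp1 target, was the chaperone that fell, in CD31 breast BrM. It averaged 55.7 ± 27.9 CPM there, against 101 ± 9.39 CPM in CD31 non-tumor libraries (SD, n = 5 each), a change of -0.83 ± 0.26 (adjusted p = 0.023) that was lost in 4 of the 10 fits without 1 library (adjusted p 0.06 to 0.063). Hsp90b1, Hyou1, Dnajb11 and Dnajc3 passed the test in none of the comparisons of BrM with non-tumor brain, with log2 changes between -0.40 and 0.80. Without PDGFRb breast library 51950, Dnajb11 was called in PDGFRb breast (0.84, adjusted p = 0.0088) and lung BrM (0.68).

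**Figure D2:**
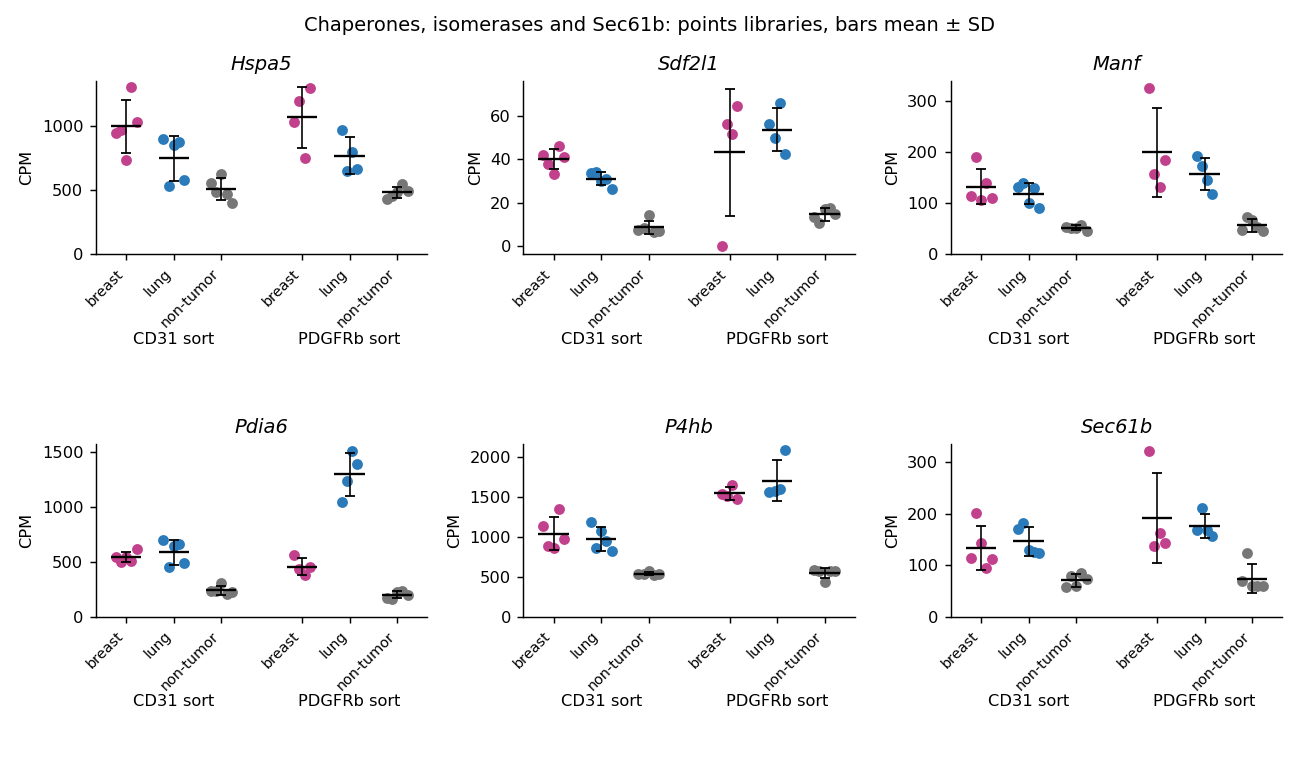
CPM of 6 folding and translocation genes in each library (points, linear axis from 0), by sort and condition, with bars at the group mean ± SD. For Sdf2l1, Manf, Pdia6 and P4hb the BrM libraries lie above the non-tumor ones in both sorts, other than PDGFRb breast library 51950 for Sdf2l1, and Pdia6 is highest in PDGFRb lung BrM (1050 to 1510 CPM).

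All 4 disulfide isomerases rose in PDGFRb breast and in PDGFRb lung BrM, and Pdia6 and P4hb rose in both CD31 comparisons too. P4hb is both the classic isomerase of the ER and a subunit of the prolyl hydroxylase that acts on collagen. Pdia6 also binds Ern1 and Hspa5.

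Pdia6 had 547, 501, 544, 509 and 618 CPM in CD31 breast libraries, 703, 449, 643, 659 and 485 CPM in CD31 lung libraries and 237, 235, 310, 203 and 223 CPM in CD31 non-tumor libraries. Both tumor groups lay above the non-tumor range, by 1.20 ± 0.15 (adjusted p = 1.8e-05) in breast and 1.34 ± 0.15 (adjusted p = 5.6e-06) in lung BrM. Pdia6 in PDGFRb cells had 564, 433, 379 and 449 CPM in breast, 1050, 1240, 1510 and 1390 CPM in lung and 169, 165, 227, 233 and 193 CPM in non-tumor libraries. These 3 groups did not overlap. The changes were 1.24 ± 0.19 (adjusted p = 0.0014) in breast and 2.77 ± 0.19 (adjusted p = 1.3e-06), or 6.82-fold, in lung BrM. In lung library 51435 alone, the one with Pdgfrb in the range of the breast libraries, the change was 2.37. The epithelial sum of that library was 6200 CPM, above every PDGFRb breast library.

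P4hb had 1140, 890, 863, 1350 and 975 CPM in CD31 breast libraries, 1190, 865, 1070, 949 and 821 CPM in CD31 lung libraries and 532, 535, 576, 525 and 531 CPM in CD31 non-tumor libraries. In PDGFRb libraries it had 1540, 1510, 1660 and 1480 CPM in breast, 1570, 1580, 1600 and 2090 CPM in lung and 580, 578, 441, 574 and 570 CPM in non-tumor brain. Tumor and non-tumor libraries were apart in both sorts. The log2 changes were 0.99 ± 0.15 and 0.92 ± 0.15 in CD31 breast and lung BrM (adjusted p = 0.00012 and 0.00021), and 1.53 ± 0.15 and 1.69 ± 0.15 in PDGFRb breast and lung BrM (adjusted p = 9.2e-05 and 1.5e-05). It remained called with library 51435 as the only PDGFRb lung library (1.49, adjusted p = 0.011).

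Pdia3, which works with Calr and Canx on glycoproteins, averaged 782 ± 125 CPM in PDGFRb breast (SD, n = 4), 1310 ± 42.3 CPM in PDGFRb lung (SD, n = 4) and 479 ± 82.5 CPM in PDGFRb non-tumor libraries (SD, n = 5). It rose by 0.74 ± 0.17 (adjusted p = 0.015) in breast and 1.5 ± 0.17 (adjusted p = 6.2e-05) in lung BrM, and the breast call was lost without non-tumor library 53680 (adjusted p = 0.055). Pdia4 rose by 1.21 ± 0.23 (adjusted p = 0.0051) and 0.98 ± 0.22 (adjusted p = 0.0094), the lung call being lost without lung library 55169-70 or 56195-56520 (adjusted p 0.05 and 0.054). In library 51435 alone Pdia3 was at 1.45 (adjusted p = 0.037) and Pdia4 at 0.88 (adjusted p = 0.44). With that 1 lung library in the fit, Pdia3 in breast BrM was at 0.67 (adjusted p = 0.073). In the CD31 sort Pdia3 had changes of 0.48 and 0.46 (adjusted p = 0.063 and 0.068) and Pdia4 of 0.50 and 0.28 (adjusted p = 0.13 and 0.39) in breast and lung BrM.

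Of the 5 stress regulators, Xbp1 was the one called in CD31 breast BrM, and none was called in CD31 lung BrM. Xbp1 and Trib3 rose in PDGFRb breast, and Xbp1, Atf4 and Trib3 in PDGFRb lung BrM. Ddit3 and Atf6 passed the test in none of the comparisons of BrM with non-tumor brain, though Atf6 was called in PDGFRb lung BrM (0.87, adjusted p = 0.012) without PDGFRb breast library 51950.

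Xbp1 had 766, 569, 392, 922 and 475 CPM in CD31 breast libraries, 434, 371, 587, 725 and 525 CPM in CD31 lung libraries and 386, 405, 379, 432 and 427 CPM in CD31 non-tumor libraries. Breast library 52865 and lung library 51697 were inside or below the non-tumor range and the others above it. The changes were 0.66 ± 0.22 (adjusted p = 0.031) in breast and 0.44 ± 0.22 (adjusted p = 0.14) in lung BrM. The breast call was lost in 6 of the 10 fits without 1 library (adjusted p 0.053 to 0.094). Its highest breast libraries, 53072 and 51950, were also those with the largest sums of epithelial markers (2840 and 1070 CPM). They shared a date, which no other CD31 breast library had, so epithelial sum and date were not tested apart. Against the non-tumor library of the same date, Xbp1 was higher by 1.13 (log2) on that date. On the date of the other CD31 breast libraries it was higher by 0.34. Without the CD31 tumor libraries whose epithelial sum passed 500 CPM, the change was 0.25 (adjusted p = 0.22) in breast and 0.69 in lung BrM, where Xbp1 was then called. Xbp1 in PDGFRb cells had 780, 797, 1490 and 1020 CPM in breast, 499, 362, 588 and 736 CPM in lung and 285, 419, 225, 336 and 257 CPM in non-tumor libraries. All breast libraries lay above the non-tumor ones, and lung library 54957 lay among them. The changes were 1.78 ± 0.27 (adjusted p = 0.0015) in breast and 0.89 ± 0.27 (adjusted p = 0.033) in lung BrM, and the lung call was lost in 7 of the 9 fits without 1 library (adjusted p 0.056 to 0.15) and in library 51435 alone (0.68, adjusted p = 0.67).

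Atf4, the factor made when PERK or another kinase slows translation, had 138, 278, 153, 130 and 152 CPM in CD31 breast libraries, 228, 193, 160, 188 and 115 CPM in CD31 lung libraries and 158, 119, 95.3, 166 and 103 CPM in CD31 non-tumor libraries. The groups overlapped, with changes of 0.44 ± 0.23 (adjusted p = 0.18) in breast and 0.52 ± 0.23 (adjusted p = 0.094) in lung BrM. Atf4 in PDGFRb cells had 279, 155, 113 and 128 CPM in breast, 266, 229, 179 and 128 CPM in lung and 89.8, 153, 84.1, 97.1 and 88.1 CPM in non-tumor libraries. Non-tumor library 54132 lay inside both tumor ranges. The lung change of 1.01 ± 0.31 (adjusted p = 0.037) was lost in 7 of the 9 fits without 1 library (adjusted p 0.08 to 0.13) and in library 51435 alone (1.34, adjusted p = 0.35), and the breast change was 0.75 ± 0.31 (adjusted p = 0.15). Since Atf4 and Xbp1 are controlled largely after transcription, these are levels of mRNA and not of active factor.

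Ddit3 had 28.4, 79.9, 30.2, 37.8 and 28.8 CPM in CD31 breast libraries, 23.3, 60.6, 22.8, 34.7 and 26.3 CPM in CD31 lung libraries and 29.0, 26.7, 26.0, 22.2 and 20.2 CPM in CD31 non-tumor libraries. Breast library 52599 and lung library 51697 stood above their groups. The changes were 0.75 ± 0.33 (adjusted p = 0.095) and 0.50 ± 0.33 (adjusted p = 0.25). Ddit3 in PDGFRb cells had 147, 112, 48.7 and 80.4 CPM in breast, 57.8, 33.6, 33.2 and 19.4 CPM in lung and 60.0, 72.3, 49.9, 57.2 and 38.2 CPM in non-tumor libraries. The breast group reached higher and the lung group lower than non-tumor brain, with overlap in both cases, and the changes were 0.83 ± 0.39 (adjusted p = 0.21) and -0.60 ± 0.40 (adjusted p = 0.36).

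Trib3, a pseudokinase induced by Atf4 and Ddit3, was singled out after its values were seen. It had 0.332, 17.2, 19.2 and 39.5 CPM in PDGFRb breast libraries, 20.6, 21.2, 38.4 and 34 CPM in PDGFRb lung libraries and 0.442, 0.0514, 0.495, 1.72 and 1.31 CPM in PDGFRb non-tumor libraries. All tumor libraries other than breast 51950 were far above the non-tumor ones. The changes were 4.6 ± 1.07 (adjusted p = 0.017) in breast and 5.19 ± 1.09 (adjusted p = 0.0059) in lung BrM, 4.97 (adjusted p = 0.00044) in breast without library 51950, and 4.62 (adjusted p = 0.26) in lung library 51435 alone. The breast call was lost in 3 of the 9 fits without 1 library (adjusted p 0.051 to 0.053) and without the 3 lung libraries of low Pdgfrb (4.53, adjusted p = 0.062). Trib3 in CD31 cells had 28.4, 45, 16.2, 36.8 and 21.9 CPM in breast, 21.9, 26.9, 16.7, 14.1 and 0 CPM in lung and 25.3, 24.3, 34.3, 29.9 and 21.4 CPM in non-tumor libraries. There the groups overlapped, with changes of 0.17 ± 0.70 (adjusted p = 0.89) and -0.71 ± 0.70 (adjusted p = 0.46). For mouse 54135 the title and the cell type label name opposite sorts, and the groups here follow the title. Read by the cell type label, the Trib3 changes were 1.31 (adjusted p = 0.64) and 1.86 (adjusted p = 0.44). The library grouped as CD31 by its title had 1360 CPM of Pecam1 and 0.227 CPM of Pdgfrb, and the one grouped as PDGFRb had 4.01 and 856 CPM. These levels go with the titles, and the cell type label sets each library in the other sort's group.

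**Figure D3:**
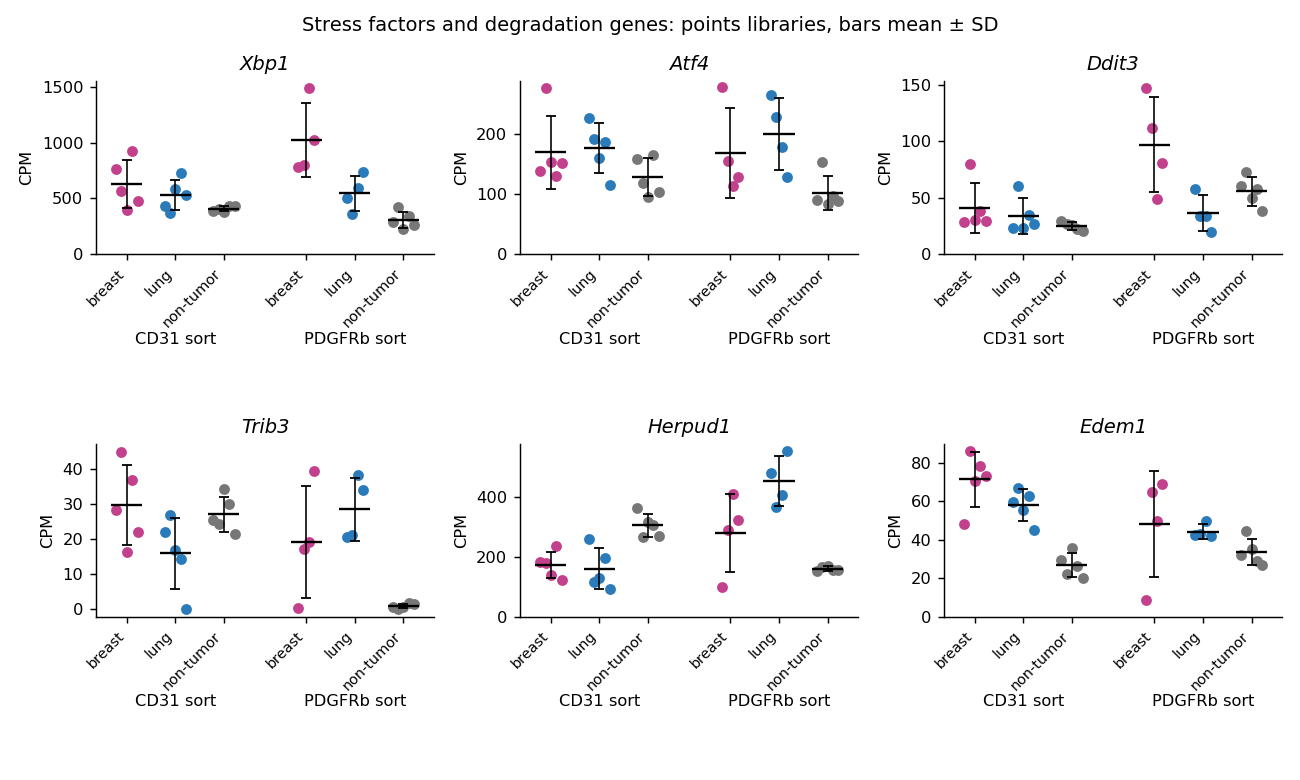
CPM of 6 stress and degradation genes in each library (points, linear axis from 0), by sort and condition, with bars at the group mean ± SD. Herpud1 lies lower in CD31 BrM than in CD31 non-tumor libraries and higher in PDGFRb lung BrM, and Trib3 is below 2 CPM in all PDGFRb non-tumor libraries.

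Of the 4 degradation genes 3 passed the test in at least 1 comparison, in different directions. Edem1 rose and Herpud1 fell in CD31 breast and lung BrM, Sel1l fell in CD31 lung BrM, and Herpud1 rose in PDGFRb lung BrM. Edem1 recognises trimmed sugars on misfolded proteins, Herpud1 and Sel1l belong to the complex that hands them to the cytosol, and Syvn1 is its ubiquitin ligase.

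Edem1 had 48.3, 85.9, 70.6, 78.2 and 73.0 CPM in CD31 breast libraries, 59.7, 66.6, 55.3, 62.4 and 45.1 CPM in CD31 lung libraries and 29.4, 22.1, 35.8, 26.2 and 19.9 CPM in CD31 non-tumor libraries. The tumor libraries did not overlap the non-tumor ones, with changes of 1.45 ± 0.20 (adjusted p = 4.5e-05) in breast and 1.17 ± 0.20 (adjusted p = 0.00027) in lung BrM. Edem1 in PDGFRb cells had 8.63, 64.6, 49.4 and 69.0 CPM in breast, 42.3, 42.8, 49.8 and 41.6 CPM in lung and 31.8, 44.3, 35.0, 29.1 and 27.0 CPM in non-tumor libraries. Breast library 51950 lay below all others and the remaining breast libraries above the non-tumor range, which the lung libraries reached into. The changes were 0.56 ± 0.50 (adjusted p = 0.54) and 0.45 ± 0.50 (adjusted p = 0.62), and 0.89 ± 0.20 (adjusted p = 0.0081) in breast without library 51950.

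Herpud1 had 182, 180, 140, 237 and 123 CPM in CD31 breast libraries, 262, 117, 131, 198 and 93.7 CPM in CD31 lung libraries and 365, 268, 317, 308 and 271 CPM in CD31 non-tumor libraries. Every tumor library lay below every non-tumor one. The changes were -0.79 ± 0.25 (adjusted p = 0.025) in breast and -0.87 ± 0.25 (adjusted p = 0.013) in lung BrM, and the breast call was lost in 3 of the 10 fits without 1 library (adjusted p 0.055 to 0.072). Herpud1 in PDGFRb cells had 100, 290, 410 and 325 CPM in breast, 483, 368, 407 and 557 CPM in lung and 154, 167, 171, 158 and 156 CPM in non-tumor libraries. All lung and 3 of the 4 breast libraries lay above the non-tumor range, and breast 51950 below it. The changes were 0.85 ± 0.31 (adjusted p = 0.10) in breast, or 1.10 ± 0.17 (adjusted p = 0.001) without library 51950, and 1.54 ± 0.31 (adjusted p = 0.0044) in lung BrM, or 1.55 (adjusted p = 0.25) in library 51435 alone.

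Sel1l averaged 196 ± 48.4 CPM in CD31 lung against 286 ± 10.2 CPM in CD31 non-tumor libraries (SD, n = 5 each), a change of -0.49 ± 0.15 (adjusted p = 0.017). In PDGFRb breast BrM its change was 0.61 ± 0.18 (adjusted p = 0.051), or 0.57 (adjusted p = 0.036) without library 51950. Syvn1 was called in no comparison.

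Of the 3 translocation genes, Sec61b rose in both tumors in both sorts, Sec61a1 in both tumors in the PDGFRb sort, and Ssr1, a subunit of the translocon-associated complex, in none. Sec61a1 forms the pore of the channel and Sec61b is a small subunit at its side. Sec61b had 114, 202, 142, 94.0 and 111 CPM in CD31 breast libraries, 171, 181, 129, 125 and 124 CPM in CD31 lung libraries and 57.3, 77.9, 58.7, 84.6 and 72.5 CPM in CD31 non-tumor libraries. Sec61b in PDGFRb cells had 322, 138, 163 and 142 CPM in breast, 168, 210, 168 and 157 CPM in lung and 69.3, 124, 58.5, 58.5 and 59.5 CPM in non-tumor libraries. No tumor library overlapped the non-tumor ones in either sort. The changes were 0.94 ± 0.20 and 1.12 ± 0.20 in CD31 breast and lung BrM (adjusted p = 0.002 and 0.0005), and 1.39 ± 0.31 and 1.29 ± 0.31 in PDGFRb breast and lung BrM (adjusted p = 0.015 and 0.013). Without the 3 lung libraries of low Pdgfrb the PDGFRb changes were 1.33 (adjusted p = 0.057) in breast and 1.15 (adjusted p = 0.54) in lung BrM.

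Sec61a1 had 505, 541, 521 and 526 CPM in PDGFRb breast libraries, 618, 596, 553 and 764 CPM in PDGFRb lung libraries and 286, 236, 291, 308 and 281 CPM in PDGFRb non-tumor libraries. The groups stood apart, with changes of 0.93 ± 0.16 (adjusted p = 0.003) in breast and 1.22 ± 0.16 (adjusted p = 0.00021) in lung BrM, or 1.11 (adjusted p = 0.11) in library 51435 alone. Sec61a1 in CD31 cells had 560, 456, 417, 598 and 469 CPM in breast, 593, 314, 657, 493 and 532 CPM in lung and 420, 394, 401, 432 and 432 CPM in non-tumor libraries. Both tumor groups overlapped the non-tumor range there, with changes of 0.30 (adjusted p = 0.20) and 0.37 (adjusted p = 0.099).

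Of the 7 collagen-modifying genes, the same 5 rose in CD31 breast and CD31 lung BrM, namely Ppib, Fkbp10, Fkbp11, Serpinh1 and Plod1. The median log2 change over all 7 genes was 1.35 in breast and 1.43 in lung BrM, the highest of the 6 roles in that sort. In the PDGFRb sort 2 rose in breast (Ppib and Plod3) and 2 in lung BrM (Ppib and Fkbp11), and Plod1 fell in lung BrM. Plod2 was called in none.

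Ppib, a cyclophilin that acts in the complex hydroxylating collagen prolines, had 406, 652, 601, 351 and 495 CPM in CD31 breast libraries, 536, 638, 512, 525 and 653 CPM in CD31 lung libraries and 262, 307, 265, 336 and 296 CPM in CD31 non-tumor libraries. Ppib in PDGFRb cells had 504, 580, 591 and 489 CPM in breast, 590, 592, 516 and 412 CPM in lung and 259, 406, 255, 269 and 268 CPM in non-tumor libraries. Tumor libraries were above the non-tumor ones throughout, though PDGFRb non-tumor library 54132 came close to lung library 56195-56520. The changes were 0.80 ± 0.17 and 1.03 ± 0.17 in CD31 breast and lung BrM (adjusted p = 0.0016 and 0.00019), and 0.93 ± 0.19 and 0.90 ± 0.19 in PDGFRb breast and lung BrM (adjusted p = 0.0091 and 0.0061). In library 51435 alone of the PDGFRb lung group the change was 0.98 (adjusted p = 0.26).

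Fkbp10 (FKBP65), a prolyl isomerase whose loss in humans causes brittle bones, had 226, 143, 249, 122 and 297 CPM in CD31 breast libraries, 239, 249, 313, 216 and 306 CPM in CD31 lung libraries and 14.1, 16.4, 14.1, 13.2 and 26.9 CPM in CD31 non-tumor libraries. The lowest tumor library was at 122 CPM and the highest non-tumor library at 26.9 CPM. The changes were 3.64 ± 0.26 (12.5-fold, adjusted p = 6.2e-08) in breast and 4.03 ± 0.27 (16.3-fold, adjusted p = 2.3e-08) in lung BrM. Fkbp10 in PDGFRb cells had 186, 205, 131 and 68.6 CPM in breast, 157, 64.8, 69.1 and 34 CPM in lung and 103, 67.6, 71.3, 112 and 108 CPM in non-tumor libraries. These groups overlapped, with changes of 0.71 ± 0.41 (adjusted p = 0.31) and -0.16 ± 0.41 (adjusted p = 0.85).

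Serpinh1, the chaperone that binds procollagen, had 635, 376, 656, 408 and 800 CPM in CD31 breast libraries, 695, 710, 647, 1060 and 563 CPM in CD31 lung libraries and 224, 158, 249, 145 and 177 CPM in CD31 non-tumor libraries. Tumor and non-tumor libraries were apart, by 1.62 ± 0.23 (3.07-fold, adjusted p = 5.6e-05) in breast and 2.00 ± 0.23 (4.01-fold, adjusted p = 7.2e-06) in lung BrM. Serpinh1 in PDGFRb cells had 1310, 1040, 799 and 612 CPM in breast, 648, 55.7, 95.6 and 61.1 CPM in lung and 419, 319, 319, 302 and 375 CPM in non-tumor libraries. All breast libraries and lung library 51435 lay above the non-tumor ones, and the 3 lung libraries of low Pdgfrb far below. The changes were 1.47 ± 0.58 (adjusted p = 0.13) in breast and -0.69 ± 0.58 (adjusted p = 0.48) in lung BrM. Without those 3 libraries the breast change was 1.4 ± 0.23 (adjusted p = 0.0049). In the same 3 libraries the fibroblast markers summed to 172, 333 and 233 CPM, against 2610 CPM in library 51435.

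Fkbp11 and Plod1 are described because of their values. Fkbp11, an ER isomerase abundant in secretory cells, had 20.9, 22.5, 14.4, 19.8 and 14.5 CPM in CD31 breast libraries, 50.5, 23.9, 22.8, 11.9 and 6.83 CPM in CD31 lung libraries and 1.4, 0.435, 1.53, 1.22 and 1.48 CPM in CD31 non-tumor libraries. The groups were apart, with changes of 3.94 ± 0.51 (adjusted p = 2.5e-05) and 4.31 ± 0.52 (adjusted p = 1.2e-05). Fkbp11 in PDGFRb cells had 0, 16.3, 22.2 and 42.0 CPM in breast, 87.2, 118, 110 and 67.5 CPM in lung and 1.07, 9.36, 1.58, 3.27 and 4.53 CPM in non-tumor libraries. All lung libraries were above all others, with a change of 4.64 ± 1.07 (adjusted p = 0.0096), or 4.42 (adjusted p = 0.31) in library 51435 alone. The breast change was 2.39 ± 0.98 (adjusted p = 0.15), or 2.79 ± 0.56 (adjusted p = 0.0056) without library 51950.

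Plod1, which hydroxylates lysines in collagen helices, had 433, 422, 502, 253 and 600 CPM in CD31 breast libraries, 311, 495, 568, 494 and 420 CPM in CD31 lung libraries and 189, 163, 224, 136 and 172 CPM in CD31 non-tumor libraries. The tumor libraries lay above the non-tumor ones, by 1.35 ± 0.21 (adjusted p = 0.00013) in breast and 1.43 ± 0.21 (adjusted p = 6.9e-05) in lung BrM. In PDGFRb lung BrM it had 97.6, 17.7, 22.4 and 42.8 CPM, against 149, 111, 116, 179 and 167 CPM in PDGFRb non-tumor libraries. All lung libraries were lower, with a change of -1.66 ± 0.48 (adjusted p = 0.029), a call lost in 6 of the 9 fits without 1 library (adjusted p 0.059 to 0.089) and at -0.60 (adjusted p = 0.78) in library 51435 alone. Plod3, which also adds sugars to hydroxylysine, rose in PDGFRb breast BrM (1.35 ± 0.38, adjusted p = 0.04), and that call was lost in 8 of the 9 fits without 1 library (adjusted p 0.054 to 0.1), among them the one without library 51950 (0.78, adjusted p = 0.059), and without the 3 lung libraries of low Pdgfrb (1.27, adjusted p = 0.084).

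**Figure D4:**
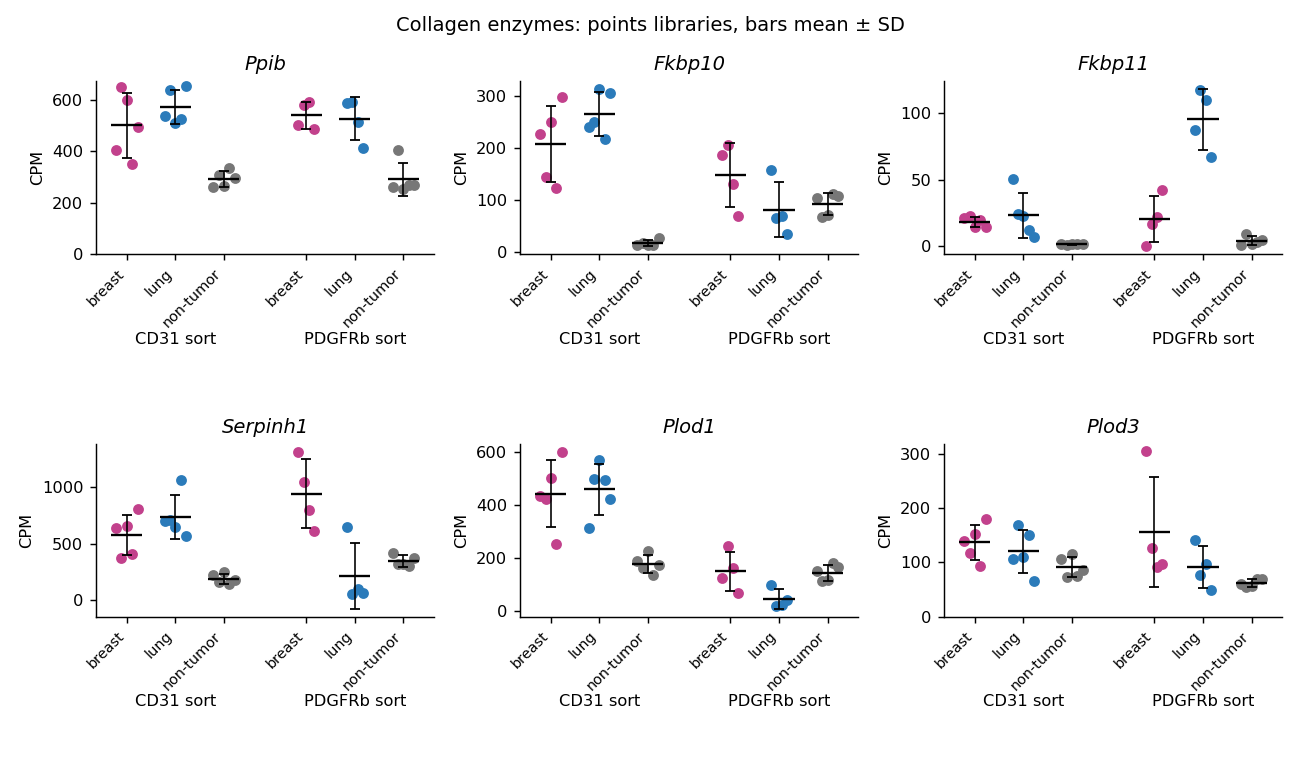
CPM of 6 collagen-modifying genes in each library (points, linear axis from 0), by sort and condition, with bars at the group mean ± SD. In the CD31 sort Ppib, Fkbp10, Fkbp11, Serpinh1 and Plod1 lie higher in both BrM groups than in non-tumor brain, and in PDGFRb lung BrM Serpinh1 splits into 1 library at 648 CPM and 3 below 100 CPM.

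Lung BrM was also set against breast BrM within each sort. In the CD31 sort 0 members were higher and 1 was lower in lung BrM, where 0.578% of all tested genes were higher and 1.55% lower, and the members' median log2 difference was -0.07, beside -0.03 for all genes. The 1 gene was Hsp90b1 (GRP94), the ER form of Hsp90 (-0.63 ± 0.15, adjusted p = 0.031), whose call was lost in 6 of the 10 fits without 1 library (adjusted p 0.055 to 0.082). In the PDGFRb sort 2 members were higher and 0 lower in lung BrM, beside 3.08% and 2.39% of all tested genes. They were Pdia6 (1.53 ± 0.20, adjusted p = 0.00084) and Pdia3 (0.76 ± 0.18, adjusted p = 0.024). Pdia3 lost that call in 5 of the 8 fits without 1 library (adjusted p 0.063 to 0.082). With library 51435 as the only lung library 0 members were called, and Pdia6 had a difference of 1.20 (adjusted p = 0.41). Without breast library 51950, Hyou1 (-0.91), Xbp1 (-1.04, adjusted p = 0.028), Ddit3 (-1.19, adjusted p = 0.038), Sel1l (-0.61) and Plod1 (-1.83) were called as lower in lung than in breast BrM.

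In non-tumor brain, 2 members were higher and 4 lower in PDGFRb than in CD31 cells (edgeR fit over all 28 libraries), beside 17.4% and 10.5% of 18548 tested genes. Fkbp10 was higher in PDGFRb cells, by 2.45 ± 0.35 (adjusted p = 5e-06), and so was Ddit3, by 1.16 ± 0.37 (adjusted p = 0.017). Trib3 (-5.04 ± 1.01, adjusted p = 0.00034), Dnajb9 (-0.94 ± 0.29, adjusted p = 0.016), Herpud1 (-0.92 ± 0.28, adjusted p = 0.012) and Sec61a1 (-0.57 ± 0.16, adjusted p = 0.0073) were lower in PDGFRb cells. Herpud1 and Sec61a1 lost their call without PDGFRb library 56727, at -0.73 (adjusted p = 0.087) and -0.41 (adjusted p = 0.094). With mouse 54135 read by its cell type label, 0 members were called. That reading sets a library of 1360 CPM of Pecam1 and 0.227 CPM of Pdgfrb in the PDGFRb group. It sets one of 4.01 and 856 CPM in the CD31 group, so these marker levels go with the titles.

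Whether BrM changed the sorts differently was tested as the PDGFRb change minus the CD31 change. For breast BrM 3 members had a higher and 1 a lower value in the PDGFRb sort, beside 2.35% and 3.57% of all tested genes. Trib3 (4.41 ± 1.27, adjusted p = 0.036), Herpud1 (1.63 ± 0.40, adjusted p = 0.013) and Sel1l (0.86 ± 0.23, adjusted p = 0.025) were the higher ones, and Fkbp10 (-2.94 ± 0.50, adjusted p = 0.00042) the lower one. In the 19 fits without 1 library, the call was lost in 14 for Trib3 (adjusted p 0.051 to 0.079), 5 for Sel1l (0.05 to 0.093) and 1 for Herpud1 (0.061). With the mouse as a block only Fkbp10 stayed called (-2.85, adjusted p = 0.0086), while Trib3 was at 4.22 (adjusted p = 0.41), Herpud1 at 1.39 (adjusted p = 0.18) and Sel1l at 0.90 (adjusted p = 0.12).

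For lung BrM 7 members had a higher and 3 a lower change in the PDGFRb sort, beside 3.77% and 6.35% of all tested genes. The higher ones were Canx (0.79 ± 0.26), Pdia3 (1.05 ± 0.26), Pdia6 (1.44 ± 0.24), P4hb (0.78 ± 0.20), Trib3 (5.89 ± 1.31), Herpud1 (2.43 ± 0.40) and Sec61a1 (0.86 ± 0.23). Canx lost its call in 16 of the 19 fits without 1 library (adjusted p 0.05 to 0.18), P4hb in 4 (0.056 to 0.21) and Sec61a1 in 3 (0.062 to 0.18). The lower ones were all collagen-modifying genes, Fkbp10 (-4.15 ± 0.51, adjusted p = 3.8e-06), Serpinh1 (-2.64 ± 0.65, adjusted p = 0.0087) and Plod1 (-3.05 ± 0.52, adjusted p = 0.00025). With the mouse as a block 6 stayed called, namely Pdia3, Pdia6, Herpud1, Fkbp10, Serpinh1 and Plod1. With library 51435 as the only PDGFRb lung library 2 stayed called, Herpud1 (2.37, adjusted p = 0.021) and Fkbp10 (-3.36, adjusted p = 0.0089), and Serpinh1 was at -1.20 (adjusted p = 0.39) and Plod1 at -2.09 (adjusted p = 0.096).

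**Figure D5:**
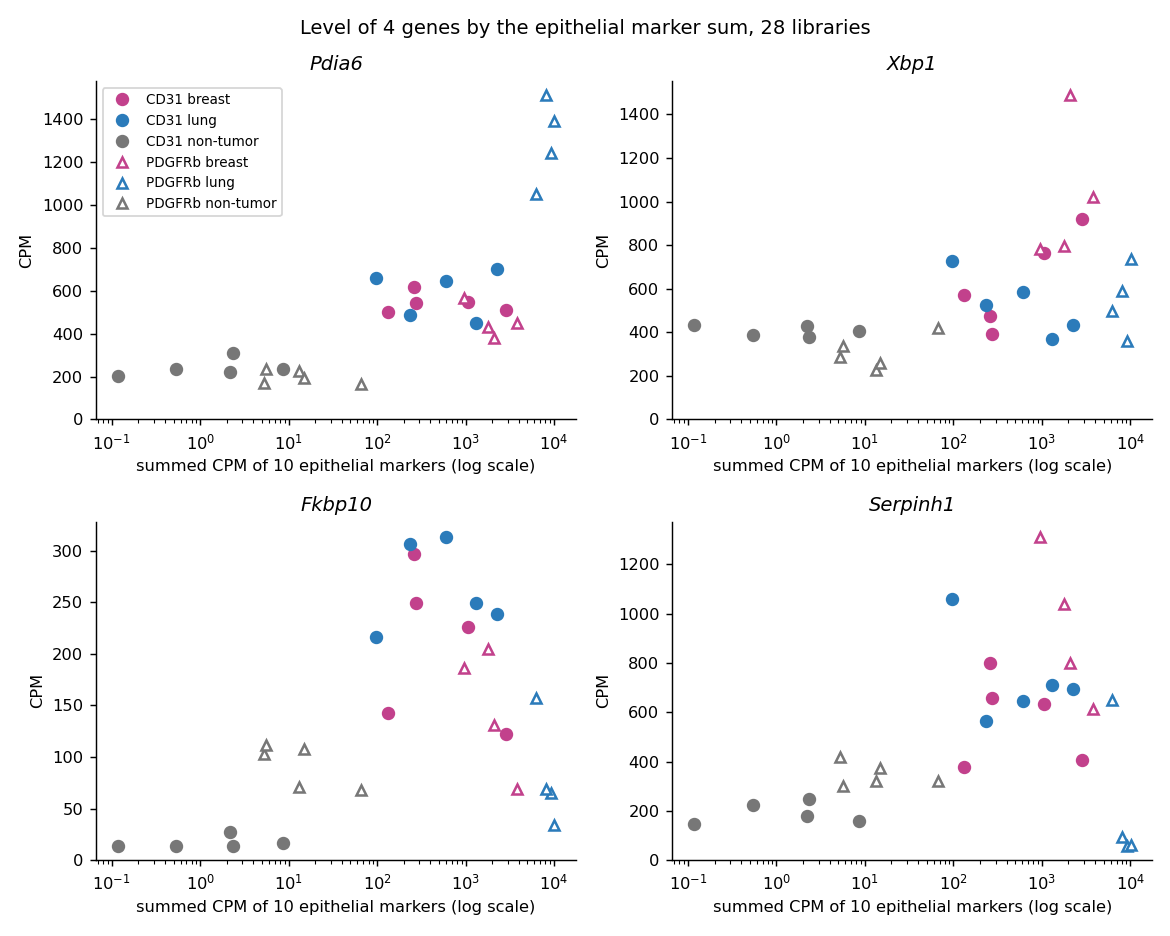
CPM of Pdia6, Xbp1, Fkbp10 and Serpinh1 in each library against the summed CPM of 10 epithelial markers, both axes in CPM with the sum on a log scale. In the CD31 sort the tumor libraries with the lowest epithelial sums (97 to 276 CPM) hold Fkbp10 at 143 to 306 CPM. The highest Xbp1 value of that sort (922 CPM) belongs to the breast library with the largest sum (2840 CPM). In CD31 lung BrM the highest Xbp1 value (725 CPM) belongs instead to the library with the lowest sum (97 CPM).

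The CD31 calls were repeated without the 5 tumor libraries whose epithelial sum passed 500 CPM, a limit chosen after the data were seen. Every PDGFRb tumor library passed that limit (964 to 3840 CPM in breast, 6200 to 10100 CPM in lung BrM). The PDGFRb calls could therefore not be repeated in this way. The breast libraries left out, 51950 and 53072, shared a date that no kept breast library had. Epithelial sum and date were thus not tested apart in breast BrM. In breast BrM, with 3 libraries kept, 15 members were then called, all among the 17 called with all libraries. In lung BrM, with 2 libraries kept, 18 were called, 14 of them among the 15. The share of all tested genes called in this smaller set was not counted, so these numbers have no background beside them. Xbp1 and Dnajb9 (-0.73, adjusted p = 0.094) lost the breast call, and Hspa5 (0.58, adjusted p = 0.059) the lung call. Fkbp10, Fkbp11, Serpinh1, Plod1 and Ppib stayed called in both tumors.

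Related genes outside the 34, from lists drawn up with earlier results known, give the context. Their counts stand beside those of all tested genes, of which 18.6% rose and 11.4% fell in CD31 breast BrM. The shares of all genes were 20.4% and 14.5% in CD31 lung, 6.3% and 2.69% in PDGFRb breast, and 9.91% and 7.58% in PDGFRb lung BrM. PDGFRb lung values of genes outside the 34 include the 3 libraries of low Pdgfrb. The 5 stress sensors and their proteases, Ern1 and Eif2ak3 among them, gave 0 calls in each of the comparisons of BrM with non-tumor brain. Of 16 Atf4 targets 6 rose in CD31 breast and 6 in CD31 lung BrM, 2 rose in PDGFRb breast, and 2 rose and 1 fell in PDGFRb lung BrM. The PDGFRb lung shares, 12.5% and 6.25%, were near those of all tested genes. Nupr1, a stress-induced chromatin protein, averaged 81.4 CPM in CD31 breast against 2.98 CPM in CD31 non-tumor libraries (4.83 ± 0.81, adjusted p = 0.00027). Phgdh, the first enzyme of serine synthesis, averaged 102 CPM in CD31 lung against 3.53 CPM in CD31 non-tumor libraries (4.92 ± 0.48, adjusted p = 1.3e-06), and 629 against 82.5 CPM in the PDGFRb sort (2.98 ± 0.78, adjusted p = 0.018). Slc7a5, an amino acid transporter, rose by 3.25 ± 0.63 in PDGFRb breast and 2.09 ± 0.61 in PDGFRb lung BrM. Ppp1r15a (GADD34), which restores translation after Atf4 is made, fell in PDGFRb lung BrM (-1.56 ± 0.46, adjusted p = 0.03).

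Of 18 other genes of translocation and N-glycosylation, 11 rose and 1 fell in CD31 breast and in CD31 lung BrM, 7 rose in PDGFRb breast and 9 in PDGFRb lung BrM. Stt3b, a catalytic subunit of the oligosaccharyltransferase, averaged 235 CPM in CD31 breast and 253 CPM in CD31 lung, against 102 CPM in CD31 non-tumor libraries (1.23 ± 0.23 and 1.37 ± 0.23). The gene that fell in the CD31 sort was Sec62, of the post-translational route and of ER-phagy (-0.62 ± 0.16 in breast, -1.19 ± 0.16 in lung BrM). Of 14 other folding and oxidation enzymes 5 rose and 1 fell in each CD31 comparison, 3 rose in PDGFRb breast and 2 in PDGFRb lung BrM. Txndc5, a disulfide isomerase, averaged 190 CPM in CD31 breast and 149 CPM in CD31 lung, against 34.3 CPM in CD31 non-tumor libraries (2.50 ± 0.27 and 2.19 ± 0.26), and it also rose in the PDGFRb sort (1.37 ± 0.33 and 1.52 ± 0.33). Of the other degradation genes tested, 4 of 10 rose in CD31 breast, 2 of 10 rose and 1 fell in CD31 lung, 2 of 11 rose in PDGFRb breast and 1 of 11 in PDGFRb lung BrM. Selenos was at 1.16 ± 0.16 in both CD31 comparisons. The rising shares of 20% in CD31 lung and 9.09% in PDGFRb lung BrM were near those of all tested genes (20.4% and 9.91%).

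Among other collagen-modifying and export genes 8 of 16 rose and 1 fell in CD31 breast, 8 of 16 rose and 2 fell in CD31 lung, 3 of 18 rose in PDGFRb breast, and 2 of 18 rose and 2 fell in PDGFRb lung BrM. Creb3l1, a membrane-bound factor that drives collagen genes in bone, averaged 7.47 CPM in CD31 breast and 5.72 CPM in CD31 lung, against 0.251 CPM in CD31 non-tumor libraries (4.88 ± 0.84 and 4.53 ± 0.83). Bmp1, the protease that trims procollagen, averaged 376 CPM in PDGFRb breast against 26.3 CPM in PDGFRb non-tumor libraries (3.86 ± 0.47, adjusted p = 0.00039). Of 9 collagen chains 3 rose in CD31 breast, 7 in CD31 lung, 6 in PDGFRb breast and 1 in PDGFRb lung BrM. In PDGFRb lung BrM the rising share was 11.1% in both of these lists, near the 9.91% of all tested genes. Col4a1, of the basement membrane, averaged 4920 CPM in CD31 breast and 4480 CPM in CD31 lung, against 1060 CPM in CD31 non-tumor libraries (2.23 ± 0.20 and 2.14 ± 0.20), and Col4a2 rose by 2.60 ± 0.28 and 2.48 ± 0.28. Col6a1, of the beaded type VI filaments, averaged 29.4 CPM in CD31 lung against 0.0562 CPM in CD31 non-tumor libraries (8.92 ± 1.67, adjusted p = 0.00062, a size that rests on few non-tumor counts), and rose by 1.71 ± 0.39 in PDGFRb lung BrM. Fibroblast markers, for cells that make fibrillar and type VI collagens, summed to 26.1 to 116 CPM in CD31 lung and 9.19 to 22.3 CPM in CD31 non-tumor libraries, and to 1810 to 9290 CPM in PDGFRb breast and 939 to 2380 CPM in PDGFRb non-tumor libraries.

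Of 9 cytosolic chaperones, which lie outside the ER, 1 rose and 3 fell in CD31 breast, and 0 rose and 3 fell in CD31 lung BrM. Hspa1a, the heat-inducible Hsp70, averaged 77.8 CPM in CD31 breast and 79.6 CPM in CD31 lung, against 481 CPM in CD31 non-tumor libraries (-2.60 ± 0.54 and -2.53 ± 0.54), a value shared uncertainly with its near copy Hspa1b. Hspb1 fell by 1.75 and 1.22 on the log2 scale. In the PDGFRb sort 1 of 9 rose in breast (Hsp90ab1, 0.89 ± 0.19) and 3 in lung BrM, with Hsp90ab1 at 1.38 ± 0.19 and Hsp90aa1 at 1.08 ± 0.31.

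Levels of different genes were compared per length in the authors' deposited FPKM values, in non-tumor libraries (SD, n = 5 each). Ppib was highest in both sorts, at 511 ± 82.4 FPKM in PDGFRb and 443 ± 46.8 FPKM in CD31 cells. In PDGFRb cells it was followed by Sec61b (289 ± 80.6), Hspa5 (243 ± 37.2), P4hb (237 ± 17) and Calr (223 ± 28.9 FPKM), which lay within each other's spread. In CD31 cells Pdia3 (241 ± 21.2), Sec61b (239 ± 39.2), Hspa5 (217 ± 38.1) and Xbp1 (216 ± 13.2 FPKM) came next, and they too lay within each other's spread. At the low end were Atf6 (3.26 ± 1.18) and Trib3 (0.526 ± 0.452 FPKM) in PDGFRb cells and Edem1 (5.06 ± 1.31) and Fkbp11 (2.54 ± 0.955 FPKM) in CD31 cells. In BrM the order shifted at places, since the next after Ppib in PDGFRb lung libraries was Pdia6 (727 ± 148 FPKM, SD, n = 4).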

How the data were processed

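RNA-seq of CD31 and PDGFRb sorts gave 28 libraries, made with SMART-Seq HT Ultra Low Input and Nextera XT kits per the labels. These keep no strand and no molecular identifiers, so floors cover counting error only. Per the submitters' processing notes, mm10 was the build, and the tools listed are limma 3.50.3, edgeR 3.36.0, RSEM 1.3.3 and STAR 2.7.9a, with no role or order. The authors deposited RSEM-type expected counts per gene without scaling, log2 values of scaled counts, and FPKM values per gene length. Of 53647 gene IDs, 52093 matched a symbol, and rows without one stayed in. The members and lists were chosen with earlier results of these data known.

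Expected counts were rounded, filtered with filterByExpr and scaled by TMM. Each sort (15 and 13 libraries), and all 28 libraries for comparisons between sorts, was fitted with edgeR 4.0.16's robust quasi-likelihood test in R 4.3.3, and calls had a Benjamini-Hochberg adjusted p under 0.05 over all genes tested. The SE is the absolute log2 change over the square root of F. P-values measure the spread between mice. CPM are rounded counts over TMM-scaled totals of all 28 libraries. The script was tested on simulated data. Groups come from titles, also for mouse 54135.

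Per-library values are given for Hspa5, Ddit3, Serpinh1 and, per role, the 2 members of smallest adjusted p in the CD31 and the 1 in the PDGFRb tumor comparisons, and for Trib3, Fkbp11 and Plod1 after their values were seen. Of each pathway list up to 2 called genes of largest change were to be named. Ppp1r15a and Sec62, and the lung BrM values of Col4a1, Col4a2 and Hspb1, were added after their values were seen.

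Both sorts of 13 mice share a mouse number, which pairs them. Their deviations from the group means correlated at -0.08 to 0.25 (median 0), with 2 of 13 above 0.1, and the comparisons between sorts were repeated with the mouse as a block. In the closest replicate pair the chi-square per degree of freedom was 17.6, so all replicates were kept apart. Other alternatives were RLE scaling, DESeq2 1.42.0, limma-voom and limma-trend (limma 3.58.1) on the deposited log2 values, other filters, date as a covariate, leaving out libraries, a minimum absolute log2 change of 1, and, after seeing the data, leaving out CD31 tumor libraries of high epithelial sum. Protein sequences were not used here.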

Additional observations from a re-analysis of the deposited data

Results flagged for a closer look

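In 90 sets of libraries of 1 group and 1 gene (15 genes in 6 groups), 13 had a library at one end that stood far from the others; chance gives about 1 in 20. In the CD31 sort, Atf4 was at 278 CPM and Ddit3 at 79.9 CPM in breast library 52599, where the next highest breast libraries had 153 and 37.8 CPM. Sdf2l1 (14.1 CPM, next 8.27) and P4hb (576 CPM, next 535) were high in CD31 non-tumor library 54135, and Fkbp10 (26.9 CPM, next 16.4) in CD31 non-tumor library 56740. In the PDGFRb sort, Sec61b was at 322 CPM in breast library 51950 (next 163). P4hb was at 2090 CPM in lung library 56195-56520 (next 1600), Edem1 at 49.8 CPM in lung library 55169-70 (next 42.8) and Serpinh1 at 648 CPM in lung library 51435 (next 95.6), the lung library of highest Pdgfrb. Among PDGFRb non-tumor libraries, 54132 was high for Atf4 (153 CPM, next 97.1), Sec61b (124 CPM, next 69.3) and Ppib (406 CPM, next 269), and 54135 was low for P4hb (441 CPM, next 570).

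The change in BrM differed between the sorts, by the test of the difference itself (PDGFRb minus CD31, log2 scale), for 4 members in breast and 10 in lung BrM. Of all tested genes, 2.35% had a higher and 3.57% a lower change in the PDGFRb sort in breast BrM. In lung BrM the shares were 3.77% and 6.35%. The members called in breast BrM were Trib3 (4.41), Herpud1 (1.63), Sel1l (0.86) and Fkbp10 (-2.94). In lung BrM the called members with positive values were Canx (0.79), Pdia3 (1.05), Pdia6 (1.44), P4hb (0.78), Trib3 (5.89), Herpud1 (2.43) and Sec61a1 (0.86). Those with negative values were the collagen-modifying genes Fkbp10 (-4.15), Serpinh1 (-2.64) and Plod1 (-3.05), while Ppib, Fkbp11, Plod2 and Plod3 were not called. Canx lost its call in 16 of the 19 fits that left out 1 library (adjusted p 0.05 to 0.18), P4hb in 4, Sec61a1 in 3, Sel1l in 5 and, in breast BrM, Trib3 in 14. Herpud1 lost the breast call without PDGFRb breast library 52865. With the mouse as a block only Fkbp10 stayed called in breast BrM, and Canx, P4hb, Trib3 and Sec61a1 lost the lung call. With 51435 as the only PDGFRb lung library, Pdia6 was at 0.97, Serpinh1 at -1.20 and Plod1 at -2.09.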

How the results depend on the processing

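Counts of members called are given here, with the reported number after "instead of". The shares of all tested genes called under the alternatives were not counted, so these numbers have no background beside them. Requiring an absolute log2 change of at least 1 gave 9 instead of 17 in CD31 breast BrM, 3 instead of 6 between the sorts in non-tumor brain, 0 instead of 1 in CD31 and 1 instead of 2 in PDGFRb lung against breast BrM. Date as a covariate gave 1 instead of 14 in PDGFRb breast, 5 instead of 18 in PDGFRb lung, 0 in CD31 and 1 in PDGFRb lung against breast BrM. Without the lung libraries of 2 mouse numbers the counts were 7 in PDGFRb lung, 0 and 1 in CD31 and PDGFRb lung against breast BrM, and 4 instead of 10 for the lung difference between sorts. Without the 3 lung libraries of low Pdgfrb they were 3, 0 in PDGFRb lung against breast BrM and 2 for that difference. PDGFRb lung against breast BrM gave 5 calls by DESeq2, 5 by limma-voom and 4 by limma-trend, and limma-voom gave 11 between the non-tumor sorts. No filter gave 6 for the lung difference between sorts. With the mouse as a replicate block the counts were 6 between the non-tumor sorts, 1 instead of 4 for the breast and 6 for the lung difference. Mouse 54135 left out gave 2 for the breast difference. Read by its cell type label, which its Pecam1 and Pdgfrb levels go against, it gave 0 between the non-tumor sorts, 0 for the breast and 4 for the lung difference. For these the cause was not tested, and smaller sets leave fewer libraries.

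Leaving out 1 library gave 14 to 18 calls in CD31 breast, 14 to 19 in CD31 lung, 0 to 1 in CD31 lung against breast, 11 to 19 in PDGFRb breast, 11 (without lung 55169-70) to 17 in PDGFRb lung, 1 to 7 in PDGFRb lung against breast (7 without breast 51950, 5 without lung 51435), 4 (without PDGFRb 56727) to 7 between the non-tumor sorts, 1 (without PDGFRb breast 52865) to 6 for the breast and 7 to 10 for the lung difference. Of 1913 values of called members under all alternatives, 0 changed sign, 1593 stayed past the threshold and 320 did not. The alternatives share most of their libraries with the main fits, so the kept signs are no independent check. RLE in place of TMM scaling moved the median of all genes by -0.11 in PDGFRb breast, -0.12 in PDGFRb lung, 0.17 between the non-tumor sorts and -0.15 for the lung difference. Relative to that median the members stood at 1.08 (RLE) and 1.05 (TMM) in PDGFRb breast and 0.9 and 0.89 in PDGFRb lung BrM. Depth limits genes near 3 counts, which is 0.119 to 0.498 CPM.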
